A study of Mus musculus with 12 samples.

Results

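Breast tumours that spread to the lung have been characterised by sets of genes reported to aid that spread, and 10 mouse genes of this kind are described here in cells of the 4T1 line, a mouse mammary tumour line that forms lung metastases. They are Vcam1, Il13ra2, Spp1, Tnc, Sparc, Angptl4, Id1, Id3, Fscn1 and Nedd9, and they were found by matching Ensembl identifiers to gene symbols. Each had 1 row among the 22880 features of the count table. Of the 10 genes, 9 passed the filter on low counts, as did 11291 features in all, and Il13ra2 did not.

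RNA was sequenced from 4 groups of 3 libraries. MYBup cells were transfected with pcDNA3-mMyb, a plasmid with mouse Myb, which encodes the c-Myb transcription factor, and their labelled lung metastatic activity is low. Mock cells carried pcDNA3.1, the empty plasmid, with normal activity. The lung3 cells were not transfected, had been passaged 3 times through the lung and have high activity. The wt cells were neither transfected nor passaged and have normal activity. All 4 groups are 4T1 cells, and the labels name no further treatment. Whether a line is a pool or a clone, and whether replicate libraries were made from separate cultures, is not stated. A difference between groups can therefore be a difference between lines, and the spread between libraries may be technical.

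The 10 genes fall into several roles. Vcam1 and Il13ra2 encode cell surface proteins: Vcam1 is an adhesion receptor bound by integrins of the alpha 4 family on leukocytes, and Il13ra2 is a decoy receptor for interleukin 13. Spp1 (osteopontin), Tnc (tenascin C), Sparc and Angptl4 encode secreted proteins, of which the first 3 belong to the tumour matrix and the last inhibits lipoprotein lipase. Id1 and Id3 encode helix-loop-helix proteins that lack a DNA-binding region and hold E proteins away from DNA. Fscn1 (fascin) bundles actin in filopodia, and Nedd9 is a scaffold for focal adhesion kinase and Src. Most were put forward from human breast cancer cells that had been selected for growth in mouse lung, where higher levels went with more lung colonisation.

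The shallowest library (lung3 replicate 2) held 8912989 counts and the deepest (wt replicate 2) 24745660. Levels are given as CPM, counts scaled to a common library total with TMM factors, which lay between 0.972 and 1.03. A gene is called when its adjusted p from edgeR's quasi-likelihood test, with Benjamini-Hochberg adjustment over the 11291 tested genes, is under 0.05. Myb stood at 39.3, 42.9 and 39.8 CPM in MYBup libraries, against 5.17, 4.49 and 6.80 CPM in mock libraries. In lung3 libraries it stood at 3.13, 2.77 and 2.22 CPM, against 4.27, 4.96 and 5.75 CPM in wt libraries. All 6 markers of mammary tumour epithelium were detected in every group, with summed levels of 2710 to 2800 CPM in MYBup, 3100 to 3420 in mock, 2570 to 2950 in lung3 and 2690 to 3070 in wt libraries. Markers of other cells were near 0: the 7 leukocyte markers summed to at most 0.887 CPM, the 5 endothelial markers to at most 0.496 and the 5 lung epithelial markers to at most 0.208 in any library. Pdgfra, a receptor listed as a fibroblast marker, was at 38.7 to 48.6 CPM in MYBup, 36.9 to 48.6 in mock, 15.9 to 21.4 in lung3 and 21.5 to 30.2 in wt libraries, whereas the other 6 fibroblast markers together reached at most 0.554 CPM.

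The levels of the 10 genes spanned a wide range. Per kilobase of exon, in wt cells, Spp1 was the highest at 258 CPM, above 98.7% of tested genes, followed by Fscn1 at 118 and Sparc at 57.9 CPM per kilobase. Id3 (21.9), Id1 (13.3) and Vcam1 (12.4 CPM per kilobase) were intermediate, and Tnc (3.74) and Nedd9 (2.66) lower. Angptl4 had 0.0839 CPM per kilobase and Il13ra2 0.00701, so both rest on few reads. Spp1, Fscn1 and Sparc had these levels in libraries where markers of stromal cells other than Pdgfra were near 0.

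**Figure D1:**
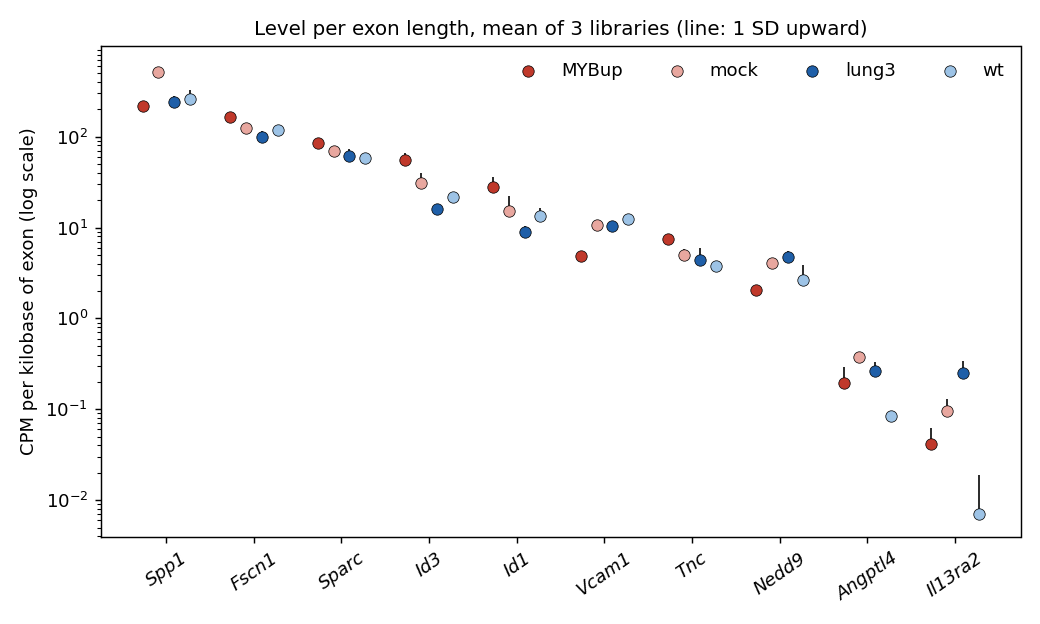
Mean level of each of the 10 genes in CPM per kilobase of exon, on a log scale, in MYBup, mock, lung3 and wt cells (3 libraries each; the line above a point is 1 SD). The genes are ordered by their level in wt cells, from Spp1 at 258 to Il13ra2 at 0.00701 CPM per kilobase, and the groups of one gene mostly lie close together on this scale.

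MYBup cells were set against mock cells to ask which of these genes differ when Myb is raised. Vcam1, Spp1, Nedd9 and Angptl4 were lower in MYBup cells, and Id1, Id3, Fscn1 and Tnc were higher. The 8 called genes were 8 of 9 tested, against 26.9% of all tested genes. The 4 higher genes stand against 14.3% of all tested genes called higher, and the 4 lower genes against 12.6% called lower. The libraries of both groups did not overlap for 8 of the 9 genes (all but Id1), against 40.6% of all tested genes. Their median absolute log2 fold change was 0.90, against 0.21 over all tested genes. Sparc was not called. The calls of Vcam1, Spp1 and Nedd9 (lower) and Id3 (higher) held under all 18 alternative settings, including leaving out each library, but those of Tnc, Angptl4, Id1 and Fscn1 did not. In bulk RNA, fewer cells that express a gene and less RNA per cell cannot be told apart.

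Comparing lung3 with wt cells asked what accompanies selection for lung growth. Angptl4 was the 1 gene called, higher in lung3 cells, which is 1 of 9 tested against 5.36% of all tested genes, 2.91% higher and 2.44% lower. It passed the low-count filter with 0 wt libraries at the cutoff, through the groups in which it is high. This limit holds for every count of calls against wt that includes Angptl4, so such counts are a description. Libraries did not overlap for Angptl4, Id3 and Fscn1, 3 of 9 genes, against 27.4% of all tested genes. The labels state no pairing. Same-numbered lung3 and wt libraries deviated alike in these same counts, so the number was also tried as a block. With that block 6 genes were called, but the block was chosen from the counts it was tested on, so these calls are no separate support. Angptl4 (log2 fold change 1.61, adjusted p = 0.019) and Nedd9 (0.88, adjusted p = 0.000337) were then higher, and Id1 (-0.56, adjusted p = 0.00252), Id3 (-0.46, adjusted p = 0.00525), Fscn1 (-0.25, adjusted p = 0.0312) and Vcam1 (-0.24, adjusted p = 0.0215) lower in lung3 cells. In that blocked edgeR fit 17.9% of all tested genes were called, 8.67% higher and 9.24% lower. The median absolute log2 fold change without the block was 0.24 for the 9 genes and 0.13 over all tested genes.

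**Figure D2:**
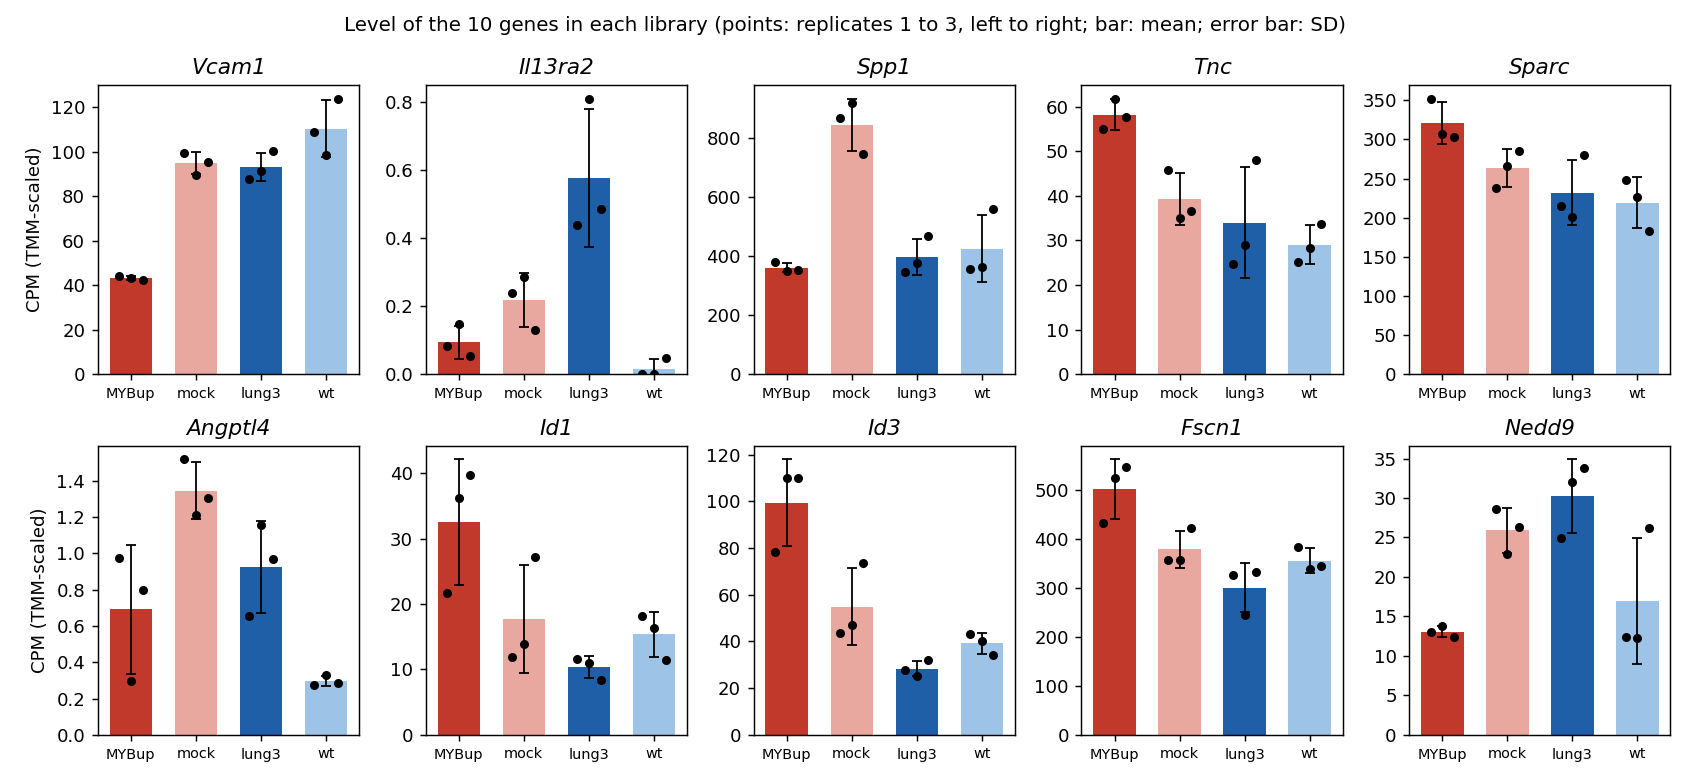
Level of each of the 10 genes in CPM in every library (points, replicates 1 to 3 from left to right), with the group mean (bar) and SD, for MYBup, mock, lung3 and wt cells. Vcam1 stood at 42.3 to 44.0 CPM in MYBup libraries, below all 9 other libraries, and Id3 at 78.1 to 110.1 CPM, above all 9 others.

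Vcam1 (ENSMUSG00000027962, GRCm38, chromosome 3, 116109949 to 116129688) had 44.0, 43.2 and 42.3 CPM in MYBup libraries 1 to 3, against 99.7, 89.7 and 95.4 CPM in mock libraries. The MYBup libraries were nearly equal and lay far below the mock libraries. The log2 fold change was -1.14 (SE 0.09, adjusted p = 2.46e-06), a 2.20-fold lower level. In lung3 libraries Vcam1 had 87.8, 91.3 and 100.4 CPM, against 109, 98.4 and 124 CPM in wt libraries. These groups overlap, and the difference was not called without the block (log2 fold change -0.24, SE 0.09, adjusted p = 0.13), with an interval from -0.42 to -0.07. The adhesion receptor was thus low in the line of low lung activity but not raised in the line of high activity. Against wt cells the log2 fold change in MYBup was -1.35 (adjusted p = 6.94e-07). Mock against wt gave -0.22 (adjusted p = 0.0698). That difference was called without wt replicate 2 (-0.29, adjusted p = 0.0331).

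Il13ra2 (ENSMUSG00000031289, chromosome X, 147383476 to 147429192) was almost unread. MYBup libraries held 1, 2 and 1 counts, against 5, 4 and 2 in mock, and lung3 libraries held 6, 7 and 7 counts, against 0, 0 and 1 in wt. The lung3 libraries were the highest although they are not the deepest. Summed and divided by total counts, lung3 over wt gave a ratio of 36.0 with an exact 95% interval from 5.76 to 1490, and MYBup over mock 0.417 (0.0968 to 1.41). Mock over wt gave 14.8 (2.15 to 638), so the line of normal activity that carries the empty plasmid also exceeded wt. These intervals cover counting error only. The decoy receptor failed the filter and was not tested. Without the filter edgeR gave an adjusted p of 0.00203 for lung3 against wt, 0.34 for MYBup against mock and 0.0138 for mock against wt, in a fit that called 4.68% of genes between lung3 and wt.

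Spp1 (ENSMUSG00000029304, chromosome 5, 104435118 to 104441050) had 379, 349 and 354 CPM in MYBup libraries, against 867, 918 and 745 CPM in mock libraries. It was 2.34-fold lower in MYBup (log2 fold change -1.23, SE 0.16, adjusted p = 0.000133). The lung3 libraries had 347, 376 and 466 CPM, against 357, 361 and 558 CPM in wt libraries, so both overlap with MYBup, and mock cells are the group that stands apart. Mock exceeded wt cells by 0.99 on the log2 scale (SE 0.16, adjusted p = 0.000465). MYBup was not called against wt (-0.24, adjusted p = 0.258), nor was lung3 against wt (-0.10, adjusted p = 0.776, interval -0.41 to 0.21). The osteopontin transcript was thus called lower in MYBup against the empty plasmid line, and not against the untransfected line. By Pearson correlation of log2 CPM over the 12 libraries, the genes with the most similar pattern were Cav1 (0.97), the gene of caveolin 1, Slc6a8 (0.96), a creatine transporter gene, and Dalrd3 (0.95), out of 9023 genes compared. These libraries share their groups, so the values are a description.

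Tnc (ENSMUSG00000028364, chromosome 4, 63959785 to 64047015) had 54.9, 61.8 and 57.8 CPM in MYBup libraries, against 45.9, 35.1 and 36.7 CPM in mock libraries. The groups did not overlap, and the log2 fold change was 0.57 (SE 0.19, adjusted p = 0.0462). That call ended without any 1 of 8 libraries (mock replicate 2 or 3, MYBup replicate 1, 2 or 3, wt replicate 1 or 2, or lung3 replicate 2), where the adjusted p was 0.0517 to 0.122. Against wt, MYBup was higher by 1.00 (adjusted p = 0.00162), and this call held without each library. The lung3 libraries had 24.7, 29.0 and 48.1 CPM, against 25.2, 28.4 and 33.7 CPM in wt libraries, and were not called (0.23, adjusted p = 0.56). Replicate 3 set the lung3 mean apart: without it the log2 fold change was -0.12. Tenascin C was thus highest in the cells of low lung activity.

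The bases before the start of Tnc are shown because Tnc was higher in the cells that carry Myb and its promoter was the only one among those of 7 matched genes in which the Myb motif was found. RefSeq promoters on GRCm38.p6 were available for Tnc, Id3, Spp1, Fscn1, Sparc, Nedd9 and Il13ra2. Each was searched on both strands over the 250 bases before the start for the Myb motif (C or T, then AAC, then G or T, then G), which 23.7% of 32851 promoter windows hold. Id3 and Fscn1, described below, are printed with it because they were also higher in MYBup cells and their windows hold no Myb motif. Capitals mark the Myb motif, as CAACTG or reversed as CCGTTA, and TATAAA, which 12.4% of windows hold. A match is a string of letters and not a binding site.
Tnc, chr4:64047016-64047265, minus strand: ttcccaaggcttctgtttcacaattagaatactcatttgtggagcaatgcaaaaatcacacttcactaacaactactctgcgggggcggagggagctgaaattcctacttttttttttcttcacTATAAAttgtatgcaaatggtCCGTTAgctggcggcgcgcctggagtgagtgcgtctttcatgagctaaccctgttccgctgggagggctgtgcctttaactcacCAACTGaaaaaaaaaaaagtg
Id3, chr4:136143572-136143821, plus strand: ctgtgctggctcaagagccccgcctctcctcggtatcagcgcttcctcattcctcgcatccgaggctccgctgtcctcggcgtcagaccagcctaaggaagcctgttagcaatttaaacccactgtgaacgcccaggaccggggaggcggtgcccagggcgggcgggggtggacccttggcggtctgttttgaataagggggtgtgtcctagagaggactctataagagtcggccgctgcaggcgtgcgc
Fscn1, chr5:142960105-142960354, plus strand: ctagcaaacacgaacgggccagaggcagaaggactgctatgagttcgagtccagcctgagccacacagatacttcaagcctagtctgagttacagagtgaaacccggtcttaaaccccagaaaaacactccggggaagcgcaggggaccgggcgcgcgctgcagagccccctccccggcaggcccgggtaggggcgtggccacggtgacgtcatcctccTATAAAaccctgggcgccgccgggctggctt

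In the Tnc window the Myb motif lay 21 to 16 bases before the start on the gene's strand and 105 to 100 bases before it on the other strand. RefSeq also gives another start of Tnc further downstream, whose window holds the same matches 100 to 95 and 184 to 179 bases before it. No motif overlapped another. The TATAAA of Fscn1 began 31 bases before the start. An NF-kB motif (GGG, then 2 to 4 of any base, then TTCC), held by 11.1% of windows, was not found in the windows of the 7 genes. The hypoxia element ACGTG, held by 16.6%, was found in that of Nedd9.

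Sparc (ENSMUSG00000018593, chromosome 11, 55394500 to 55423183), a collagen-binding protein gene, had 352, 307 and 303 CPM in MYBup libraries, against 237, 266 and 285 CPM in mock libraries. The groups did not overlap, but the log2 fold change of 0.29 (SE 0.13) was not called (adjusted p = 0.126). The lung3 libraries had 215, 201 and 279.5 CPM, against 248, 227 and 184 CPM in wt libraries, and overlap them (0.08, adjusted p = 0.786, interval -0.18 to 0.34). Against wt, MYBup was higher by 0.55 (adjusted p = 0.006). Tnc and Sparc share the order MYBup, mock, lung3, wt from high to low, in which neighbours below MYBup overlap.

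Angptl4 (ENSMUSG00000002289, chromosome 17, 33773750 to 33781830) had few reads, 4 to 32 counts per library. Levels were 0.978, 0.296 and 0.800 CPM in MYBup libraries, against 1.52, 1.21 and 1.31 CPM in mock, and 0.655, 1.15 and 0.970 CPM in lung3 libraries, against 0.273, 0.330 and 0.288 CPM in wt. The wt libraries lay below all mock and lung3 libraries. The log2 fold change was 1.57 (SE 0.41, adjusted p = 0.0389) for lung3 against wt and 2.16 (SE 0.36, adjusted p = 0.00054) for mock against wt. In MYBup against mock Angptl4 fell by 0.96 on the log2 scale (SE 0.33, adjusted p = 0.0477) but MYBup exceeded wt (1.20, adjusted p = 0.0341). None of the wt libraries reached the 0.676 CPM that the filter asks for in at least 3 libraries, so the gene entered the test through the groups in which it is high. From summed counts, lung3 over wt gave a ratio of 2.97 (exact 95% interval 1.66 to 5.46) and MYBup over mock 0.515 (0.326 to 0.798).

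The calls of Angptl4 were fragile. That between MYBup and mock ended without any 1 library other than MYBup replicate 1, with an adjusted p of 0.0506 to 0.176, and was also lost with DESeq2 (adjusted p = 0.121), without the filter (0.0647), on the 6 libraries compared (0.0849) and with a replicate block (0.113). That between lung3 and wt ended without any wt replicate, mock replicate 1, MYBup replicate 3 or lung3 replicate 2 or 3, where the adjusted p was 0.0569 to 0.142. That of MYBup against wt ended without MYBup replicate 1 or 3 or any wt replicate, with an adjusted p of 0.0672 to 0.14, and with DESeq2 (0.0696) or limma voom (0.0635). The call of mock against wt held without each library. The closest genes by correlation over the 12 libraries were Mapkapk3 (0.91), Lhfpl2 (0.89) and Odaph (0.89), out of 9024 compared.

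Id1 (ENSMUSG00000042745, chromosome 2, 152736251 to 152737410) had 21.7, 36.2 and 39.7 CPM in MYBup libraries, against 11.95, 13.9 and 27.1 CPM in mock libraries. The groups overlap, since MYBup replicate 1 lies below mock replicate 3. The log2 fold change was 0.90 (SE 0.29, adjusted p = 0.0342), and the call ended without mock replicate 1 or 2 or MYBup replicate 2 or 3, with an adjusted p of 0.0774 to 0.144. In lung3 libraries the level was 11.6, 10.97 and 8.46 CPM, against 18.2, 16.4 and 11.5 CPM in wt (log2 fold change -0.58, SE 0.31, adjusted p = 0.314).

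Id3 (ENSMUSG00000007872, chromosome 4, 136143497 to 136145755) had 78.1, 110.1 and 110.1 CPM in MYBup libraries, against 43.8, 46.9 and 73.7 CPM in mock libraries, 1.82-fold higher (log2 fold change 0.86, SE 0.18, adjusted p = 0.00385). In lung3 libraries it had 27.8, 25.4 and 31.9 CPM, against 43.2, 40.1 and 34.4 CPM in wt, which do not overlap (-0.46, SE 0.19, adjusted p = 0.186). The fit on the 6 libraries compared called this difference (adjusted p = 0.0397). Each of the 4 groups of Id3 was apart from the next, in the order MYBup, mock, wt, lung3 from high to low. MYBup replicate 1 was the lowest and mock replicate 3 the highest library of its group for both Id genes.

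Fscn1 (ENSMUSG00000029581, chromosome 5, 142960343 to 142973185) had 431, 523 and 547 CPM in MYBup libraries, against 357, 356 and 422 CPM in mock libraries. The groups did not overlap and the increase was small, 1.32-fold (log2 fold change 0.40, SE 0.12, adjusted p = 0.0286). The call ended without mock replicate 1 or 2 or MYBup replicate 2 or 3, with an adjusted p of 0.0603 to 0.111. In lung3 libraries fascin had 326, 243 and 332 CPM, against 384, 338 and 344 CPM in wt, again without overlap (-0.24, SE 0.12, adjusted p = 0.294). Against wt, MYBup was higher for Id1 (1.09, adjusted p = 0.00926), Id3 (1.34, adjusted p = 0.000142) and Fscn1 (0.50, adjusted p = 0.00732), and these edgeR calls held without each library.

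Nedd9 (ENSMUSG00000021365, chromosome 13, 41309581 to 41487362) had 13.03, 13.8 and 12.4 CPM in MYBup libraries, against 28.6, 22.9 and 26.3 CPM in mock libraries. The groups lay far apart, with a 1.99-fold lower level in MYBup (log2 fold change -0.99, SE 0.24, adjusted p = 0.00889). In lung3 libraries it had 24.96, 32.0 and 33.8 CPM, against 12.4, 12.3 and 26.2 CPM in wt. The log2 fold change of 0.84 (SE 0.24) was just short of a call (adjusted p = 0.0578), and wt replicate 3, at the level of lung3 replicate 1, decided it: without that library the log2 fold change was 1.29 (adjusted p = 0.000261). The call was also made without mock replicate 2 (adjusted p = 0.0451), without the low-count filter (0.0173), with DESeq2 (0.0129) and with limma voom (0.0342). Against wt, MYBup was not called (-0.37, adjusted p = 0.251). Mock against wt gave 0.62 (adjusted p = 0.053), and 1.08 (adjusted p = 0.000167) without wt replicate 3. That library was also the highest of the wt group for Spp1, Vcam1 and Tnc.

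**Figure D3:**
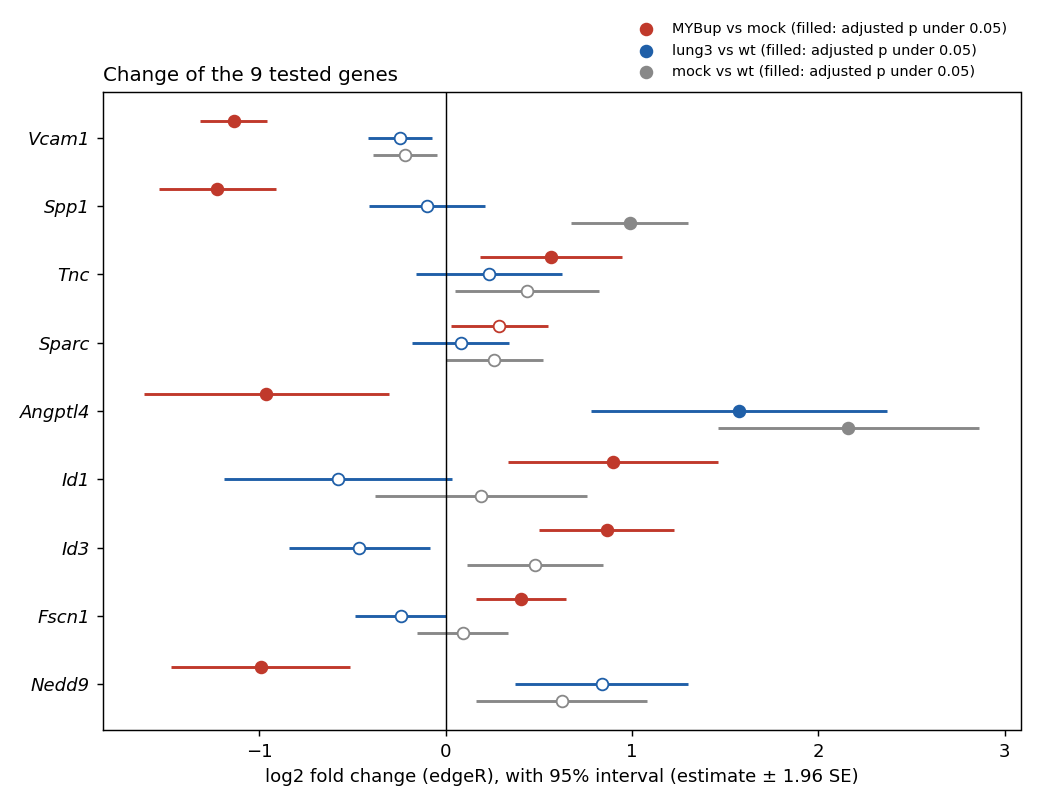
Log2 fold changes of the 9 tested genes for MYBup against mock, lung3 against wt and mock against wt, with 95% intervals, where filled points mark an adjusted p under 0.05 in the edgeR fit on 12 libraries. Vcam1 and Spp1 stand at -1.14 and -1.23 in MYBup against mock and at -0.24 and -0.10 in lung3 against wt, while Id1, Id3 and Fscn1 lie right of 0 in the first and left of 0 in the second.

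The labelled lung activity runs from low in MYBup through normal in mock and wt to high in lung3. Of the 10 genes, Nedd9 was the 1 whose mean level had MYBup lowest and lung3 highest, an order that 15.5% of all tested genes have. Id1, Id3 and Fscn1 had the reverse order, with MYBup highest and lung3 lowest, which 15.1% of tested genes have. The place of Nedd9 rests on wt replicate 3: without it MYBup stood above wt by 0.08 on the log2 scale (adjusted p = 0.683), and none of the 10 genes then had the first order. Sparc then took the reverse order on the same CPM scale, with wt replicates 1 and 2 at 248 and 227 CPM and a lung3 mean of 232 CPM. With all libraries kept, the other 6 had neither order. The 10 genes thus did not line up in a single direction with the labelled activity. In the fit on 12 libraries Angptl4 was the 1 gene of the 10 called in opposite directions in the MYBup and lung3 comparisons, with both calls resting on few counts. The gene also passed the low-count filter with 0 wt libraries at the cutoff. With the replicate block for lung3 against wt only, Nedd9 was also lower in MYBup and higher in lung3, and the opposite held for Id1, Id3 and Fscn1. The share of all tested genes with such calls was not computed for this mixed setting, so these calls have no background. With the block in MYBup against mock as well, edgeR called neither Fscn1 (adjusted p = 0.0572) nor Angptl4 (adjusted p = 0.113) there. Without the block Angptl4 is 1 of 96 genes (0.85% of those tested) that were lower in MYBup against mock and higher in lung3 against wt.

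Whether the change in lung3 (against wt) differed from the change in MYBup (against mock) was tested directly in the same edgeR fit, since these changes share no library. Of 9 tested genes 7 differed, against 19.9% of all tested genes, 9.52% with the lung3 change above and 10.4% with it below. Among the 7, Angptl4 entered the test through the groups in which it is high. The lung3 change exceeded the MYBup change for Angptl4 (log2 difference 2.54, SE 0.53, adjusted p = 0.00492), Nedd9 (1.83, SE 0.34, adjusted p = 0.00251), Spp1 (1.12, adjusted p = 0.00407) and Vcam1 (0.89, adjusted p = 0.000431). It was below the MYBup change for Id1 (-1.48, SE 0.42, adjusted p = 0.0265), Id3 (-1.33, SE 0.27, adjusted p = 0.00415) and Fscn1 (-0.64, SE 0.18, adjusted p = 0.0211). On the log2 scale each such difference is also the sum of lung3 against MYBup and mock against wt. These parts were 0.14 and 0.99 for Spp1, and 0.38 and 2.16 for Angptl4. For both genes the offset between the 2 lines of normal activity thus made up most of the difference. The difference lost its call for Fscn1 without mock replicate 1, MYBup replicate 2 or 3 or wt replicate 1 (adjusted p of 0.0517 to 0.0617). For Id1 it was lost without mock replicate 1, MYBup replicate 2 or 3, wt replicate 1 or 2, or lung3 replicate 2 or 3 (adjusted p of 0.0521 to 0.0725). For Tnc (-0.33, adjusted p = 0.437) and Sparc (-0.21, adjusted p = 0.479) no difference was called. Tnc was called without lung3 replicate 3 (-0.68, adjusted p = 0.0315).

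Comparing the lines of high and low activity directly, lung3 had higher Vcam1 (log2 fold change 1.11, adjusted p = 1.41e-06) and Nedd9 (1.21, adjusted p = 0.00137) than MYBup. The same cells had lower Id3 (-1.81, adjusted p = 1.06e-05), Id1 (-1.67, adjusted p = 0.000704), Tnc (-0.77, adjusted p = 0.00621), Fscn1 (-0.74, adjusted p = 0.000375) and Sparc (-0.47, adjusted p = 0.011; 0.0562 without lung3 replicate 2). These are 7 of 9 tested genes, against 48.8% of all tested genes in the edgeR fit, 24.2% higher and 24.6% lower in lung3. Spp1 (0.14, adjusted p = 0.501, interval -0.18 to 0.45) and Angptl4 (0.38, adjusted p = 0.43, interval -0.36 to 1.11) were not called. This comparison shares all its libraries with those against mock and wt.

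The empty plasmid line itself differed from untransfected cells in 35.9% of tested genes, 18% higher and 17.9% lower. Of the 9 tested genes, Spp1 and Angptl4 were called, both higher in mock. Against wt instead of mock, MYBup had 7 of 9 genes called, 6 higher and 1 lower, where 38.2% of all tested genes were called, 19.4% higher and 18.7% lower. The 6 higher genes were Tnc, Sparc, Angptl4, Id1, Id3 and Fscn1, and Vcam1 was lower. Vcam1 was therefore the gene that was called lower in MYBup against both lines of normal activity, and Tnc, Id1, Id3 and Fscn1 the genes called higher against both. MYBup enters both comparisons, so they are not independent.

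Other genes of breast-to-lung signatures were taken as a list of 20, of which 19 were in the table and 11 tested. In MYBup against mock 1 rose and 3 fell, against 14.3% and 12.6% of all tested genes, with a median log2 fold change of -0.07, against 0.00 over all tested genes. In lung3 against wt 3 rose, against 2.91% of all tested genes, with a median of 0.41, against 0.00. This list was also chosen with earlier results of these data known, so these shares are a description. Cxcl1, a neutrophil chemokine gene, averaged 8.38 ± 0.69 CPM in the MYBup libraries and 30.6 ± 11.8 CPM in the mock libraries, and 153 ± 64.9 CPM in lung3 and 26.8 ± 5.86 CPM in wt cells (SD, n = 3 libraries each). Its edgeR log2 fold changes were -1.86 in MYBup against mock (adjusted p = 0.00232) and 2.52 in lung3 against wt (adjusted p = 0.000937). Ly6e, a surface protein gene, had log2 fold changes of -3.24 in MYBup against mock (adjusted p = 0.00613) and 1.86 in lung3 against wt (adjusted p = 0.00273). It had 9 counts in MYBup, 99 in mock, 1555 in lung3 and 743 in wt cells. Mock was itself below wt for Ly6e (-2.505, adjusted p = 0.000223), although both lines have normal activity. The protease inhibitor gene Slpi was called in lung3 (1.99, adjusted p = 0.00606) and not in MYBup (-0.81, adjusted p = 0.107), except without mock replicate 3 (-1.21, adjusted p = 0.000206). Mock was above wt for Slpi as well (1.175, adjusted p = 0.0189). Ptgs2, the gene of cyclooxygenase 2, fell by 0.64 in MYBup (adjusted p = 0.0115; 0.0502 without mock replicate 3). The collagenase gene Mmp1a rose by 0.87 (adjusted p = 0.0424), a call that ended without any mock replicate, MYBup replicate 1 or 3, wt replicate 1 or lung3 replicate 1 (adjusted p of 0.0503 to 0.12). With the replicate block, lung3 against wt was also called for Ptgs2 (0.46, adjusted p = 0.000516) and Mmp1a (-1.22, adjusted p = 0.0214). Other members of the human signature had next to no reads: Ereg had 1 count in MYBup, 1 in mock and 0 in lung3 and wt cells, and Mmp2 had 7, 4, 2 and 3 counts in MYBup, mock, lung3 and wt cells.

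Receptors, relatives and partners of the 10 genes formed a list of 53, of which 40 were tested. In MYBup against mock 6 rose and 6 fell, a share near the 26.9% of all tested genes called there, with a median of -0.04 on the log2 scale. In lung3 against wt 4 rose and 1 fell, where 5.36% of all tested genes were called, with a median of -0.01. Among the integrins that bind Vcam1, the alpha 4 gene Itga4 had 0 counts in all groups. Itgb7, a beta subunit that pairs with alpha 4, averaged 0.803 ± 0.32 CPM in the MYBup libraries and 4.35 ± 1.09 CPM in the mock libraries, and 5.13 ± 1.601 CPM in lung3 and 1.03 ± 0.365 CPM in wt cells (SD, n = 3 libraries each). The edgeR log2 fold changes were -2.43 in MYBup against mock (adjusted p = 0.000323) and 2.35 in lung3 against wt (adjusted p = 0.00136). Mock was itself above wt for Itgb7 (2.095, adjusted p = 0.00033), and MYBup was not called against wt (-0.34, adjusted p = 0.548). Itgb1, the general beta 1 subunit, rose by 0.28 in MYBup (adjusted p = 0.0172), a call that ended without mock replicate 1 or MYBup replicate 2 or 3 (adjusted p of 0.0526 to 0.0551). Of the 4 osteopontin receptor genes, Itgb5 fell by 0.53 in MYBup (adjusted p = 0.00186) and Cd44, Itgav and Itgb3 were not called in either comparison in the fit on 12 libraries, except for Cd44 in MYBup without mock replicate 2 (-0.28, adjusted p = 0.0465). With the replicate block Itgb5 was called higher in lung3 than in wt (0.32, adjusted p = 0.00785).

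Some genes tied to tenascin and to the Id proteins were called in MYBup against mock. Msi1, an RNA-binding protein gene linked to tenascin C in human breast cancer cells, had 30 counts in MYBup and 4 in mock cells (log2 fold change 2.98, adjusted p = 0.00493), and 30 in lung3 and 41 in wt cells. The tenascin relative Tnxb was lower in MYBup than in mock by 1.39 (adjusted p = 0.00222) but higher than in wt by 1.75 (adjusted p = 0.0018). Mock exceeded wt by 3.14 (adjusted p = 1.29e-05). Mean Tnxb levels were 1.475 CPM in MYBup, 3.85 in mock, 0.480 in lung3 and 0.427 in wt libraries. Of 11 tested Id relatives, partners and BMP signalling genes, 2 rose and 1 fell in MYBup, a share near the 26.9% of all tested genes. Id2 averaged 89.9 ± 4.84 CPM in the MYBup libraries and 59.3 ± 3.01 CPM in the mock libraries (SD, n = 3 each; log2 fold change 0.60, adjusted p = 0.0341), and was not called in lung3 (-0.28, adjusted p = 0.473). Its call ended without mock replicate 1 or 3 or any MYBup replicate (adjusted p of 0.0625 to 0.108). Smad6, an inhibitor of BMP signalling that BMP induces, rose by 1.02 (adjusted p = 0.00702), and the E protein gene Tcf12 fell by 0.30 (adjusted p = 0.0363; 0.0524 to 0.133 without mock replicate 1 or 3, any MYBup replicate or wt replicate 2). The signalling receptors Il13ra1 and Il4ra, partners of the interleukin 13 system, rose in lung3 against wt by 0.58 each (adjusted p = 0.00417 and 0.00593). Il4ra was also higher than wt in mock (0.54, adjusted p = 0.0011) and in MYBup (0.35, adjusted p = 0.0141). Il13ra1 was called against wt neither in mock (adjusted p = 0.848) nor in MYBup (adjusted p = 0.352).

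**Figure D4:**
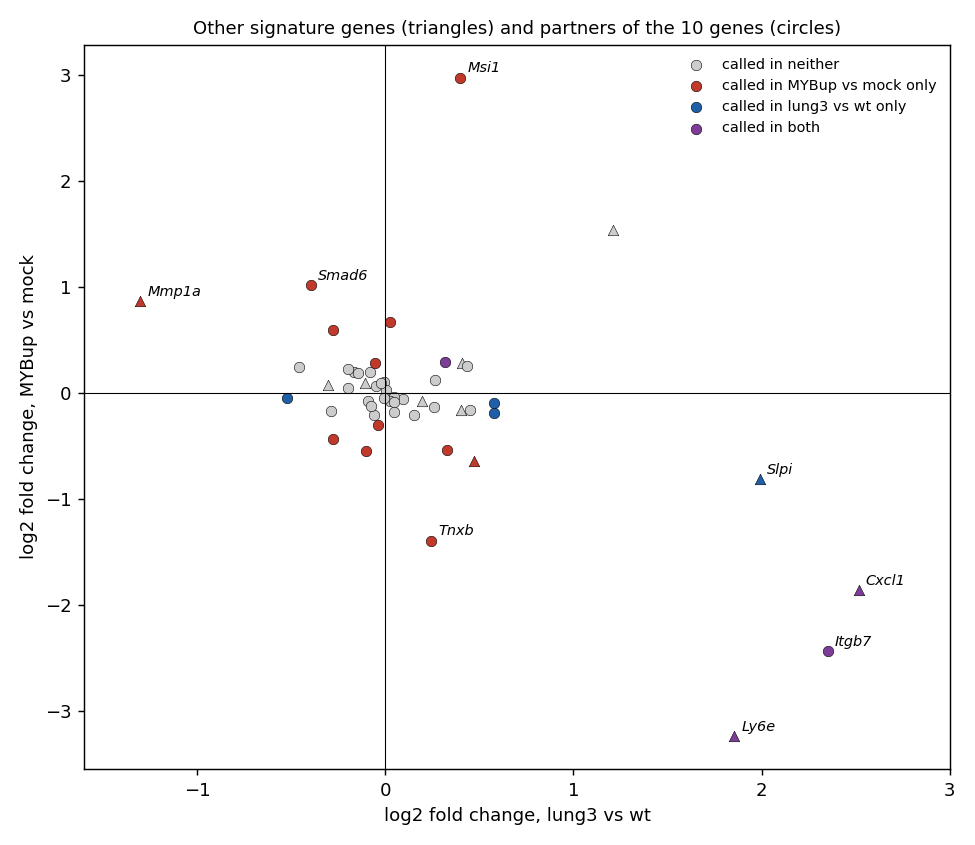
Log2 fold changes of the tested genes of both lists, lung3 against wt on the x axis and MYBup against mock on the y axis, with triangles for other signature genes, circles for partners and colours for the comparison in which a gene was called. Cxcl1, Ly6e and Itgb7 lie at the lower right, with -1.86, -3.24 and -2.43 in MYBup and 2.52, 1.86 and 2.35 in lung3, and most other genes lie near the centre.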

How the data were processed

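Total RNA came from an RNeasy Plus Mini extraction and TruSeq library preparation, per the labels' protocols. The authors deposited raw counts of reads per Ensembl gene, not normalised. STAR, edgeR and GRCm38 are named in the submitters' processing notes, with the version, counting tool, annotation and strand setting not given in the sources used here. All 2708 deposited values of 5 or more digits are rounded to 4 significant digits. Exons of Vcam1, Spp1, Tnc and Nedd9 share 61, 309, 176 and 62 bases with other GENCODE M21 genes, which are not rows of the table, so their counts are uncertain to that extent. 22570 of 22880 identifiers matched a symbol, and 0 columns were left unused.

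Counts were tested with edgeR 4.0.16 in R 4.3.3 (quasi-likelihood F test after filterByExpr and TMM scaling), with the 12 libraries fitted together and each group a term. Each SE was derived from the log2 fold change and F. Intervals of log2 fold changes are the estimate ± 1.96 SE and are narrower than the F test implies. That of Sparc in mock against wt ran from 0.001 to 0.52, where the edgeR test gave an unadjusted p of 0.0702. The filter asks for 0.676 CPM in at least 3 libraries. The script was tested on simulated data. Alternatives were RLE factors, no filter, the 6 libraries compared, a replicate block, DESeq2 1.42.0, limma voom 3.58.1 and leaving out each library. Exact binomial intervals have a level of 95% and cover counting error only. Between replicates the chi-square per gene was 2.29 to 37.4, above sampling noise. Each library counted as a sample, but spread of this kind cannot show that libraries come from separate cultures. Figures used matplotlib 3.10.9.

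Deviations from group means correlated by 0.294 to 0.329 between same-numbered lung3 and wt libraries, and by -0.212 to -0.093 between unlike numbers, so the numbers were taken to pair them. Between MYBup and mock the same-number values ran from -0.496 to 0.382 and the unlike-number values from -0.541 to 0.636. Correlations above those of lung3 and wt thus arose without a shared number, so the pairing of lung3 and wt is an assumption. The labels state no pairing.

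The 10 genes and the lists were chosen with earlier results of these data known. Named beside them were list genes called with an absolute log2 fold change of at least 1 in either main comparison, at most 6 per list, and the 3 genes with the highest correlation to the called gene with the largest change in each (average log2 CPM of at least 3). Ptgs2, Mmp1a, Ereg, Mmp2, Itga4, Itgb1, Itgb5, Cd44, Itgav, Itgb3, Id2, Tcf12, Il13ra1 and Il4ra were named after their values were seen.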

Additional observations from a re-analysis of the deposited data

How the results depend on the processing

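Of 1603 recomputed fold changes of the 9 tested genes and the tested list genes that are named, 1480 kept their side of the threshold, 84 lost and 39 gained a call, and 0 called values changed sign. For MYBup against mock, 8 of the 9 genes were called, and 4 to 7 without 1 library. For lung3 against wt the 1 call among these 9 became 2 without the low-count filter (where Il13ra2 was called as well), 2 on the 6 libraries compared, 2 with DESeq2, 2 with limma voom and 6 with the replicate block, and 0 to 2 without 1 library. For mock against wt the 2 calls among the 9 became 4 without the filter (again with Il13ra2 called as well) and 4 with DESeq2, and 2 to 4 without 1 library. With the replicate block, genes called overall were 1985 in place of 605 for lung3 against wt, and 1479 in place of 3038 for MYBup against mock. The labels state pairing for neither, and between MYBup and mock the same-number correlations ran from -0.496 to 0.382. For lung3 against wt the block changed the calls of Ptgs2, Mmp1a and Itgb5 and no other among the named list genes it could test, which leave out Msi1 and Tnxb. Without wt replicate 1, wt replicate 2 or lung3 replicate 2, 237, 268 and 294 genes were called for lung3 against wt. The cause of these shifts was not tested. Angptl4 and Il13ra2 are limited by depth, with at most 32 and 7 counts in a library.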
